A study of Homo sapiens with 4 samples.

Results

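The comparison of Wnt3a-treated with control H1 cells was made on the 13276 regions of open chromatin that had a peak in both deposited peak lists. They were found by merging overlapping peaks of the control and Wnt3a lists, which gave 33134 regions, and keeping each region with at least 1 peak from each list. The 4 lists of the series merged into 87966 regions. H1 is an established line of human embryonic stem cells, grown here on Matrigel without feeder cells, and the series followed open chromatin by ATAC-seq early in mesendoderm differentiation. Mesendoderm is the cell state from which mesoderm and endoderm both arise. Each of its 4 groups was 1 library. Control cells stayed in the growth medium with N2, B27 and basic fibroblast growth factor (bFGF) at 20 ng/ml, and no harvest time was given for them. The Wnt3a cells received Wnt3a at 25 ng/ml for 6 h in another medium, whose listed components include B27 but not N2 or bFGF. The other groups, used here only for context, received Activin A at 25 ng/ml, or Activin A and Wnt3a at 25 ng/ml each, in that medium for 6 h. Ligand and medium therefore changed together, and their parts in any difference from control cannot be told apart. With 1 library a side there was no replicate error and no test between the groups. The 95% intervals below cover counting over regions only.

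Wnt3a is a secreted ligand that binds Frizzled and LRP receptors, which stops the destruction of beta-catenin and lets it join TCF and LEF proteins on DNA. In pluripotent cells this pathway is known to induce genes of the primitive streak and mesendoderm. bFGF signals through the ERK kinases and helps keep human pluripotent cells undifferentiated. ATAC-seq maps open chromatin by where a transposase can insert adapters, and its strong peaks lie largely at gene promoters and enhancers.

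The measure was the change in percentile rank. Each region took its best peak score in each list, the authors' own value, and was ranked from 0 to 100 among the 13276 shared regions of that list. A change of +20 points thus means that a region overtook 20% of the shared regions between the control and the Wnt3a list. A change of 20 points or more was called a rise or a fall. What the score measures is not stated in the sources used here, and it may depend on depth, which is unknown. Scores are printed for both lists so that the ranks can be traced, and their sizes were not compared between lists.

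Genes could be placed only for a small hg19 sample of UCSC known genes, 43 of them with a RefSeq symbol, which was not selected for this biology. Of these, 19 had a shared region within 1 kb of an annotated transcription start, and the start lay inside the region for 17. Of the 19 regions, 3 rose, 6 fell and 10 stayed within 20 points, where 21.9% of all shared regions rose and 21.6% fell. The 19 starts ranked high in control, with a median of 70.3, and the median of their rank changes was -0.05. The Wnt3a peak was narrower than the control peak at 17 of the 19, beside 65.5% of all shared regions. The median log2 ratio of Wnt3a to control width was -0.355 at the starts. It was -0.371 over all shared regions in the eighth decile of control rank, whose median rank was 75. In that decile 37.9% of regions fell and 3.77% rose. The part of the starting rank at the gene starts was not tested. A region can also belong to a neighbouring gene outside the sample, so it is named only by position.

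The sequences just upstream of 4 of these genes are shown for the largest rise, the smallest change and the largest falls among the 19 starts. ZDHHC23 rose most, RIF1 held its rank, and ZNF107 and LINC00857 fell most. Each line gives the 120 bases before the RefSeq start, on the gene's own strand, from RefSeq on GRCh38.p14. Capitals mark CG dinucleotides.
ZDHHC23: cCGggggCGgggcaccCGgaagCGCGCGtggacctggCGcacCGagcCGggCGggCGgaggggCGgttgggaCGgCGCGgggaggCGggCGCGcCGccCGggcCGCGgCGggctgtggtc
RIF1: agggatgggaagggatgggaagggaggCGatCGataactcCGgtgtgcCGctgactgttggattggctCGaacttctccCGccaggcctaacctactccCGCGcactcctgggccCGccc
ZNF107: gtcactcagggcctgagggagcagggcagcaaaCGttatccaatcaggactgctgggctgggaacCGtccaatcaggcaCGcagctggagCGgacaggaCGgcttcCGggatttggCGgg
LINC00857: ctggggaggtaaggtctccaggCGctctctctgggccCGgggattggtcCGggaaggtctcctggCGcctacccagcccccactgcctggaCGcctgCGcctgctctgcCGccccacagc

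ZDHHC23 had 23 CG dinucleotides in these 120 bases, RIF1 had 9, and ZNF107 and LINC00857 had 7 each. Over 250 bases upstream ZDHHC23 had 44, a number that 0.776% of 27305 RefSeq promoters reach. RIF1 and LINC00857 had 13 each and ZNF107 had 7, beside a median of 11 over all promoters and of 22 over the 15 of these genes with a RefSeq promoter. In these few genes the counts of rises and falls overlapped. The other rises had 17 at CLCN4 and 32 at ETV6. The other falls with a RefSeq promoter had 26 at MCTP2, 22 at DXO and 1 at PHF8. SKA3 and C4orf46, which stayed within 20 points, had 30 and 24. By the hg19 starts, the 250 bases at ETV6 and PHF8 lay outside the regions placed there.

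The region at ZDHHC23, which encodes a palmitoyltransferase, lay at chr3:113666470-113667457 on hg19 and covered the start and the whole first exon. Its score was 53.27 in control and 137.09 after Wnt3a. Its rank rose from 5.40 to 70.2, by 64.8 points, and its peak widened from 555 to 933 bp. A region near the bottom of the control order was thus well above the middle after Wnt3a. Among the 13030 shared regions that also met an Activin A and a combined-treatment peak, it ranked 58.3 after Activin A and 77.2 after both ligands. It was thus above its control rank in all 3 treated lists. Picking it as the largest rise, from so low a control rank, by itself makes this likely.

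The other 2 rises were smaller and came with narrower peaks. At CLCN4, a chloride and proton exchanger gene on the X chromosome, the region chrX:10124499-10125193 rose by 24.7 points, from rank 15.8 to 40.5, while its peak went from 695 to 465 bp. It ranked 4.26 after Activin A and 0.510 after both ligands, below its control rank, so of the 3 treated lists only that of Wnt3a placed it higher than control did. The region chr12:11801437-11802065 lay 723 bases upstream of the start of ETV6, an ETS-family transcriptional repressor, and rose by 21.6 points, from 11.9 to 33.5. Its peak was 604 bp in control and 582 bp after Wnt3a.

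Among the 6 falls, the region at LINC00857, a long noncoding RNA gene, dropped furthest. At chr10:81966771-81967998, its score was 147.55 in control and 80.43 after Wnt3a, its rank went from 70.8 to 29.8, and its peak from 1228 to 634 bp. It ranked lower still after Activin A, at 20.9, and after both ligands, at 11.4. ZNF107, a zinc finger protein gene, had a region at chr7:64126184-64126960 that went from rank 55.3 to 18.9, but ranked 63.6 after Activin A and 54.3 after both ligands. Its low rank was thus seen only in the Wnt3a list, which picking it as a fall by itself makes likely.

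DXO encodes an enzyme that removes faulty caps from RNA. Its region at chr6:31939520-31940407 went from rank 75.7 to 39.7, and was the only one of the 6 falls whose peak was wider after Wnt3a, at 886 against 737 bp. PHF8 encodes a histone demethylase. The region next to its start, chrX:54070631-54071549, went from rank 30.8 to 1.02, close to the bottom of the Wnt3a order. PFKFB2, which makes and breaks down a regulator of glycolysis, had a region at chr1:207226113-207227293 that went from rank 93.7 to 67.3, by -26.5 points. MCTP2, a membrane protein with calcium-binding C2 domains, had one at chr15:94773984-94775563 that went from 84.6 to 60.6, by -24.04 points. After Activin A these last 2 regions ranked 87.6 and 81.4, and after both ligands 87.8 and 84.0, near their control ranks.

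The 10 regions that stayed within 20 points ran from -10.3 points at A1BG, a plasma glycoprotein gene, to +17.1 at FAM199X. RIF1 acts in DNA replication timing and break repair, and its region chr2:152265321-152267077 ranked 86.1 in control and 86.0 after Wnt3a. Its widest peak nevertheless went from 1365 to 893 bp, and 1 control peak stood against 2 Wnt3a peaks. The region at R3HDM1, chr2:136287831-136289584, was near the top of both lists, at 98.7 and 98.6. SKA3, a kinetochore gene, changed by 6.39 points, SARS2, a mitochondrial tRNA synthetase gene, by 12.0, and PRPF39, a splicing factor gene, by -6.12.

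**Figure D1:**
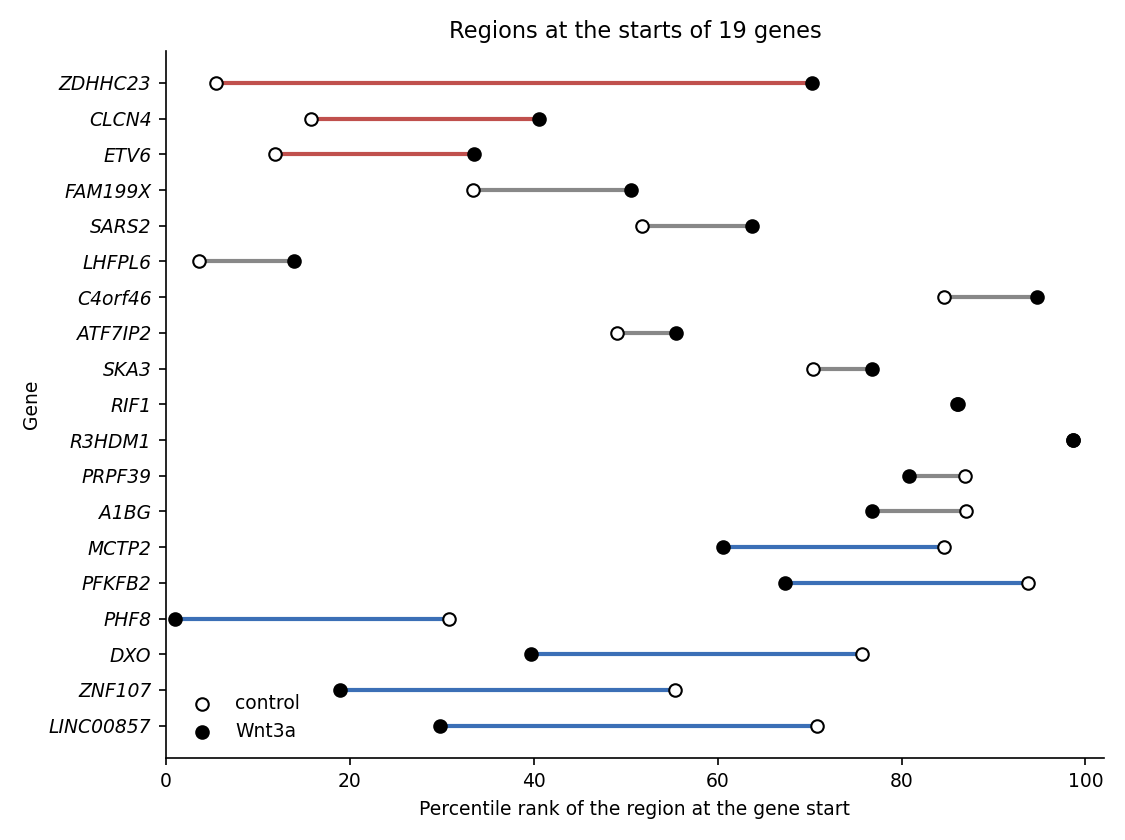
Percentile rank (horizontal axis, 0 to 100) of the shared region at the start of each of 19 genes, with open circles for control and filled circles for Wnt3a. Red lines mark the 3 rises and blue lines the 6 falls of 20 points or more; ZDHHC23 moves furthest, from 5.40 to 70.2, and the circles of RIF1 and R3HDM1 coincide.

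TCF and LEF proteins recognise sequences built around CTTTGA, or TCAAAG on the other strand, so these 6 letters were searched on both strands of the 250 bases upstream. RefSeq promoters were found for 15 of the 19 genes, all but LHFPL6, ATF7IP2, PRPF39 and PFKFB2. The letters were present at 2 of the 15, and at 11.4% of all 27305 promoters. The 120 bases upstream of these genes are given below with the match in capitals.
R3HDM1: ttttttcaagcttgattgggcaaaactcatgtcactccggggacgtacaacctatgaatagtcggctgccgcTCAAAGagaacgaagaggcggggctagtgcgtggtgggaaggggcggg
MCTP2: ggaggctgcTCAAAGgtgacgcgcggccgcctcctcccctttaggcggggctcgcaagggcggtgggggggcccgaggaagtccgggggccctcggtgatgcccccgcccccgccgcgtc

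The match began 48 bases before the start of R3HDM1, whose region held its rank, and 111 bases before that of MCTP2, whose region fell by 24.04 points. None of the 3 rises had it in this window. At ETV6, however, the window did not reach the risen region, which lay 723 bases upstream of the hg19 start. The region at PHF8 lay 20 bases downstream of its hg19 start, so the window missed it too. A match to 6 letters is a description of the sequence, not a bound site.

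Away from the starts, 7 further shared regions lay inside genes of the sample, 4 of them in introns of ETV6. Their changes ran from -56.9 points, in an intron of LHFPL6, to +8.47, in an exon of IDO2. The ETV6 region chr12:11895823-11897207 went from rank 43.5 to 1.61, while its peak went from 903 to 590 bp. The other 3 ETV6 intron regions changed by -14.4, -11.5 and -4.58 points, so the upstream region of this gene was ranked higher after Wnt3a and the intron regions lower. The LHFPL6 region, chr13:40072542-40073479, went from rank 72.3 to 15.4, and its peak from 938 to 430 bp. All 7 peaks were narrower after Wnt3a, where 65.5% of all shared regions were.

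The remaining 24 genes had no shared region at the start. For 16 of them neither list had a peak there, among them PITX1, a homeobox gene, and the myeloid gene S100A9. A control region without a Wnt3a peak was present at 6 and a Wnt3a region without a control peak at 3, and AMPD3 was counted in both because it had a separate region of each list. Over the genome 12578 of 25854 control regions and 7280 of 20556 Wnt3a regions were not shared. SRPK1, a kinase of splicing factors, and TLR2, a pattern recognition receptor, had a control region, while ZP3, an egg coat glycoprotein gene, and TBC1D12 had a Wnt3a region.

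Over the genome the shared regions were the higher-scoring part of both lists. They made up 51.3% of 25854 control regions (95% exact interval 50.7 to 52.0) and 64.6% of 20556 Wnt3a regions (63.9 to 65.2). Ranked among all regions of their own list, they had a median percentile of 70.3 in control and 64.2 after Wnt3a, against 32.1 and 29.5 for regions that were not shared. They were also wider, with a median of 812 bp in control and 702 bp after Wnt3a, against 595 and 565 bp. The comparison therefore leaves out mainly low-scoring, narrow peaks. Most shared regions, 12496 or 94.1%, held exactly 1 peak of each list.

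Ranks were related between the lists but moved widely. Spearman's rho of the scores was 0.54 over the 13276 regions, given as a description since the regions share their 2 libraries. The rank change had an SD of 27.6 points over regions, quartiles of -16.4 and +17.1, and a range from -90.5 to +93.5. Rises were counted in 2913 regions, 21.9% of those compared (21.2 to 22.7), and falls in 2864, 21.6% (20.9 to 22.3). Rises and falls were thus about equally frequent, and rank changes within 1 set of regions sum to 0 by construction. Ranked among all peaks of each list instead, 2102 of the same regions rose and 3397 fell. A change of 50 points or more was found in 523 regions upward and 570 downward, and 4465 regions, 33.6%, stayed within 10 points.

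In scores, the middle of the order was narrow. The 40th, 50th and 60th percentiles of the shared regions stood at 90.3, 105 and 123 in control and at 91.3, 104 and 119 after Wnt3a. A shift of 20 points in the middle thus spans a small range of scores. Shifts were also counted by decile of mean rank, where the scale itself limits how far a region at either end can move. In the lowest decile by mean rank, 7.61% rose and 6.48% fell, in the fifth decile 32.5% and 31.1%, and in the highest decile 4 and 3 regions, or 0.301% and 0.226%. By decile of control rank, 712 of the 1327 lowest regions rose, 53.7% (50.9 to 56.4), and 245 of the 1328 highest fell, 18.4% (16.4 to 20.6). At these ends a region could shift by 20 points in 1 direction only. In the regions above the median of mean rank, ranked again among themselves, rho was 0.31 with 1785 rises and 1744 falls among 6638 regions. That selection used both ranks, which by itself lowers rho, and 20 points of the new ranks span fewer regions. These values therefore do not show how far the order of the higher-scoring regions moved.

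**Figure D2:**
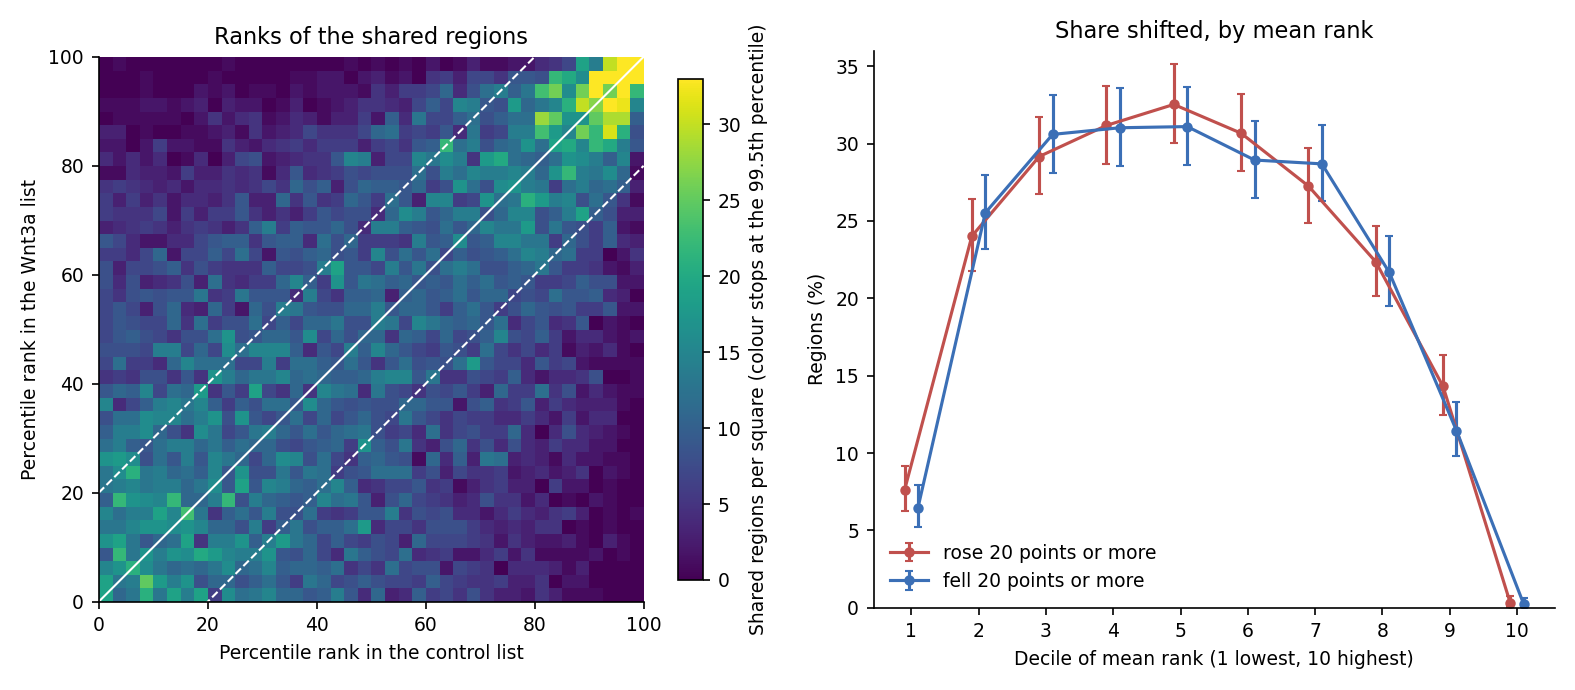
Left, percentile rank in the control list against rank in the Wnt3a list for the 13276 shared regions, with colour giving the number of regions per square of 2.5 by 2.5 points and dashed lines at changes of 20 points. Right, percent of regions that rose or fell by 20 points or more in each decile of mean rank, with exact 95% intervals; both shares are near 31% in the middle and below 1% in the highest decile, and at both ends the scale itself limits the change a region can have.

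The region that rose most lay at chr2:220251673-220253543 in band 2q35. Its score was 52.65 in control and 357.58 after Wnt3a, its rank rose from 4.45 to 97.9, and its peak widened from 565 to 1871 bp. It also ranked high after Activin A, at 91.5, and after both ligands, at 89.5, so control was the low list of the 4. The second, chr8:104032747-104033830 in 8q22.3, rose from rank 1.11 to 91.8, and ranked 54.5 after Activin A and 49.9 after both ligands. In chr11:72524839-72526366, 11q13.4, the rank went from 9.44 to 95.8, and it was 62.9 after Activin A and 79.1 after both ligands.

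The 10 largest rises all started between rank 0.659 and 9.44 in control and ended between 86.0 and 97.9, and all 10 peaks were wider after Wnt3a. All 10 also ranked higher after Activin A than in control. They differed in the combined list. The region chr2:38977719-38979052 in 2p22.1 ranked 94.0 there, chr1:16542340-16543241 in 1p36.13 ranked 91.6, and chr17:79196462-79197650 in 17q25.3 ranked 85.3. By contrast chr11:107879444-107880501 in 11q22.3 ranked 22.95 and chr19:48111037-48112575 in 19q13.33 ranked 24.8, although Wnt3a was present in that treatment too. The last 2 of the 10, chr8:104510756-104511993 and chr1:109101972-109103399, ranked 69.2 and 56.3. These regions were picked for extreme ranks in the control and Wnt3a lists, which by itself places them nearer the middle of the other lists.

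The region that fell most, chr1:52343685-52345182 in 1p32.3, had a score of 246.17 in control and 58.61 after Wnt3a. Its rank went from 91.7 to 1.17 and its peak from 1498 to 594 bp. It ranked 75.01 after Activin A and 73.5 after both ligands, so that Wnt3a was the low list. The next, chr14:24681961-24683219 in 14q12, went from rank 89.3 to 0.554 with ranks of 73.7 and 72.9 in those lists. The region chr12:57027744-57029332 in 12q13.3 went from 96.1 to 9.47, with 63.1 and 64.6.

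None of the 10 largest falls had a wider peak after Wnt3a. The sharpest narrowing among them was at chr8:37887486-37889559 in 8p11.23, from 2074 to 557 bp, where the rank went from 89.5 to 5.57. In chr8:103667596-103669162, 8q22.3, the rank went from 93.9 to 10.4 while it stood at 98.2 after Activin A and 55.3 after both ligands. Another of the 10, chr1:51425455-51426419, lay in 1p32.3 like the largest fall, and went from 85.5 to 0.893. The regions chr4:103997227-103998188, chr4:54458408-54459926 and chr7:21984948-21986224 went from 87.5, 88.7 and 92.5 to 3.01, 4.61 and 8.38. In 9 of the 10 the Activin A rank was above the Wnt3a rank, which picking regions for low Wnt3a ranks by itself makes likely. The exception, chr2:92323838-92325343, lay in the centromeric band 2p11.1, where control had 2 peaks, and ranked 95.2 in control, 10.3 after Wnt3a, 6.72 after Activin A and 24.6 after both ligands.

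Among the 2698 regions with a mean rank of 75 or more, shifts were bounded by the top of the scale. The largest rise there was at chr3:197024222-197026237 in 3q29, from rank 56.0 to 98.0 with the peak going from 1147 to 2016 bp. The next rises were at chr3:100119424-100120901 in 3q12.2, by 39.5 points, chr20:21106004-21107395 in 20p11.23, by 38.7, chr6:31632359-31634151 in 6p21.33, by 38.2, and chr2:187558416-187559386 in 2q32.1, by 37.8. Both other treated lists also ranked all 5 higher than control did, which picking them as the largest rises by itself makes likely.

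The largest falls among these high-ranking regions included 3 on chromosome 17. In chr17:22248002-22249263, in the centromeric band 17p11.1, the rank went from 99.3 to 52.9. In chr17:7386723-7388472, 17p13.1, it went from 97.5 to 52.8, and in chr17:6346766-6348104, 17p13.2, from 95.9 to 56.6. The 17p13.1 region ranked 70.6 after Activin A and 90.6 after both ligands. The other 2 were chr12:2999411-3000638 in 12p13.33, with a change of -43.4 points, and chr1:114446933-114448514 in 1p13.2, with -39.97. The latter stayed near the top of the other treated lists, at 95.8 and 94.8.

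At the very top, ties limited the ranks. The highest control score, 3100, was shared by 20 regions, and 17 of them also had 3100 or more after Wnt3a. Among the 5 highest mean ranks, chr18:18515356-18520490 and chr20:26188442-26190660 lay in the centromeric bands 18q11.1 and 20p11.1. Another, chr1:564293-570469 in 1p36.33, scored 3100 in both lists. It was tied there with other regions, and its place among the 5 rests only on the order of the tied regions. It covers a known nuclear copy of mitochondrial DNA, with a peak of 6176 bp in control and 6177 bp after Wnt3a. Repeats and such copies draw reads from many places, so their scores may not describe open chromatin at 1 locus.

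Peaks of the shared regions were narrower after Wnt3a. The median ratio of Wnt3a to control width was 0.886, or -0.18 on the log2 scale (-0.19 to -0.16), and 8694 regions, 65.5%, were narrower while 4557, 34.3%, were wider. A narrowing by 1.5 times or more was found in 2727 regions, 20.5%, and a widening of that size in 726, or 5.47%. In the regions with 1 peak each, the Wnt3a peak lay inside the control peak in 34.3% and the reverse held in 12.6%. The median Wnt3a edge lay 48 bp inside the control edge on the left and 43 bp on the right. Left and right are genome coordinates, so these medians cannot show whether single peaks narrowed on both sides. Divided by the median width of all peaks of its list, the log2 ratio was -0.066, and by that of the shared regions 0.035. The peaks' centres lay a median of 96.5 bp apart. Peak width can depend on depth and calling, neither of which is known here, and their part in the narrowing was not tested.

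Width and rank moved together. Spearman's rho between the rank change and the log2 width ratio was 0.59 over regions, and within each list rank and width were correlated at 0.81 in control and 0.71 after Wnt3a. In the risen regions 68.8% of peaks were wider after Wnt3a, with medians of 656 bp in control and 782 bp after Wnt3a. In the fallen regions 7.93% were wider, with medians of 930 and 595.5 bp. The regions within 20 points narrowed like the whole, with a median ratio of 0.893. Only from a rise of 20 to 30 points did the median ratio pass 1, at 1.05, and it reached 1.53 in the 251 regions that rose by 60 points or more. At falls of more than 60 points it was 0.519. Score and width come from the same peak calls, so the width is not a separate readout of the shift.

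**Figure D3:**
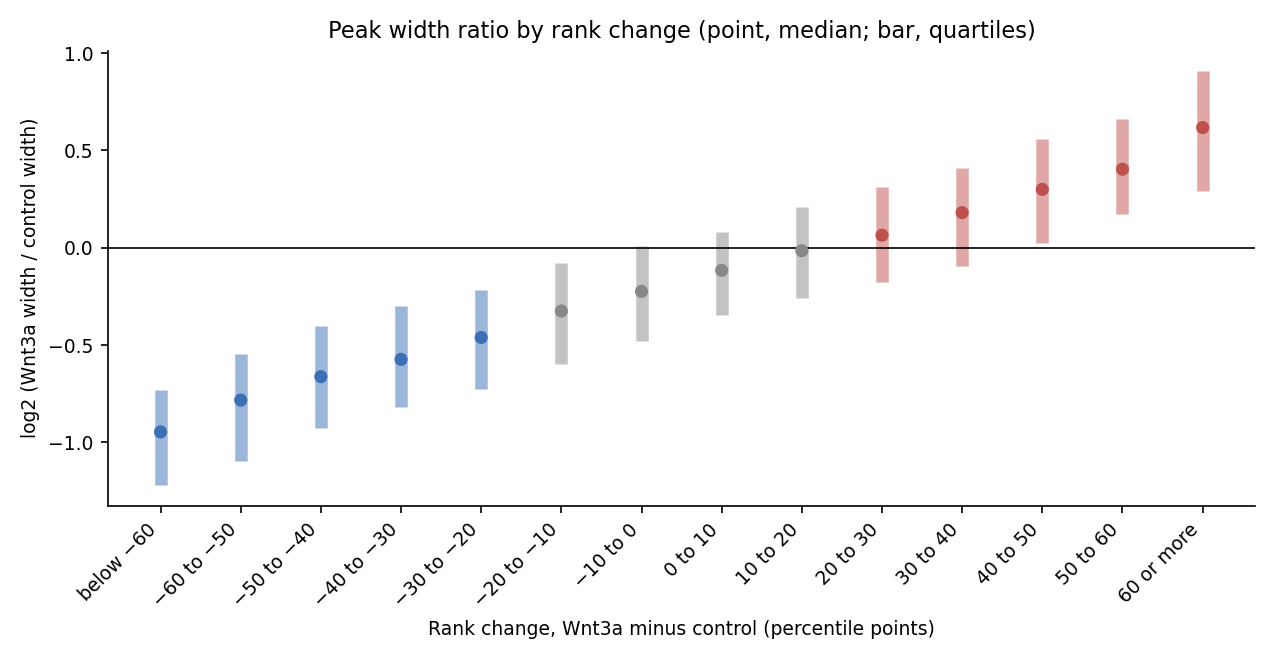
Log2 ratio of Wnt3a to control peak width (vertical axis) for the shared regions grouped by rank change in percentile points (horizontal axis); points are medians and bars run from the lower to the upper quartile. The medians climb from -0.95 in the strongest falls to 0.62 in the strongest rises and cross 0 only above a rise of 20 points.

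Some regions changed width far more than the rest. The strongest widening among regions with 1 peak each was at chr11:114309980-114311282 in 11q23.2, from 387 to 1303 bp, with a rank going from 17.9 to 91.3. At chr6:151186403-151188133, 6q25.1, the peak went from 573 to 1731 bp and the rank from 3.56 to 82.6, yet the region ranked 37.3 after Activin A and 13.4 after both ligands. At chr1:39283733-39284961, 1p34.3, a peak of 405 bp became one of 1229 bp, the rank went from 27.9 to 80.8, and the other treated lists placed it at 16.9 and 5.36. Of the treated lists, only that of Wnt3a ranked these 2 regions high. They were picked for peaks that were wider after Wnt3a, and width and rank moved together, which by itself makes this likely. The 11q23.2 region ranked 62.3 after Activin A and 47.4 after both ligands. A wide peak did not always mean a large shift, since chr2:20646318-20648030 in 2p24.1 went from 570 to 1713 bp with a rise of 17.3 points.

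The strongest narrowing was at chr10:127583820-127586039 in 10q26.2, from 2220 to 362 bp, where the rank went from 92.6 to 18.5. At chr1:36786150-36787528 in 1p34.3 the width went from 1379 to 333 bp, at chr1:201618120-201620043 in 1q32.1 from 1833 to 451 bp, at chr2:47418479-47420138 in 2p21 from 1660 to 416 bp, and at chr6:105387865-105389633 in 6q16.3 from 1644 to 417 bp. All 5 fell in rank, by 46.0 to 74.1 points. Regions where the number of peaks differed moved against that number. The 419 regions with 1 control peak and several Wnt3a peaks had a median change of -12.3 points, from a median control rank of 83.1. The 284 with several control peaks and 1 Wnt3a peak had one of +14.3, from 48.0. All regions in the ninth decile of control rank had a median change of -9.68, and those in the fifth -1.85. The part of the starting rank was not tested.

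Shifts were spread over all chromosomes. The autosomes' median changes lay between -3.36 points on chromosome 17 and +3.11 on chromosome 21. On chromosome 17, 208 of 729 regions fell, 28.5% (25.3 to 32.0), and 130 rose, 17.8% (15.1 to 20.8), beside 21.6% and 21.9% of all regions. Its median interval, -5.87 to -0.95, lay below 0. On the X chromosome the median was +4.83 (0.874 to 9.57) over 152 regions, of which 38 rose and 30 fell. The X regions had a low median control rank of 33.2. All shared regions in the fourth decile of control rank had a median change of +2.89, a value inside the X interval. In that decile 28.2% rose and 20.8% fell. The part of the starting rank in the X median was not tested. Ranked among all peaks of each list, the X median was -0.047. These intervals were not adjusted for the number of chromosomes. In the regions present in all 4 lists, the chromosome 17 median was -3.23 after Wnt3a, -1.20 after Activin A and -2.20 with both ligands. The X median was +5.08, -0.16 and +0.82 in the same order. These 3 differences share the control library.

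**Figure D4:**
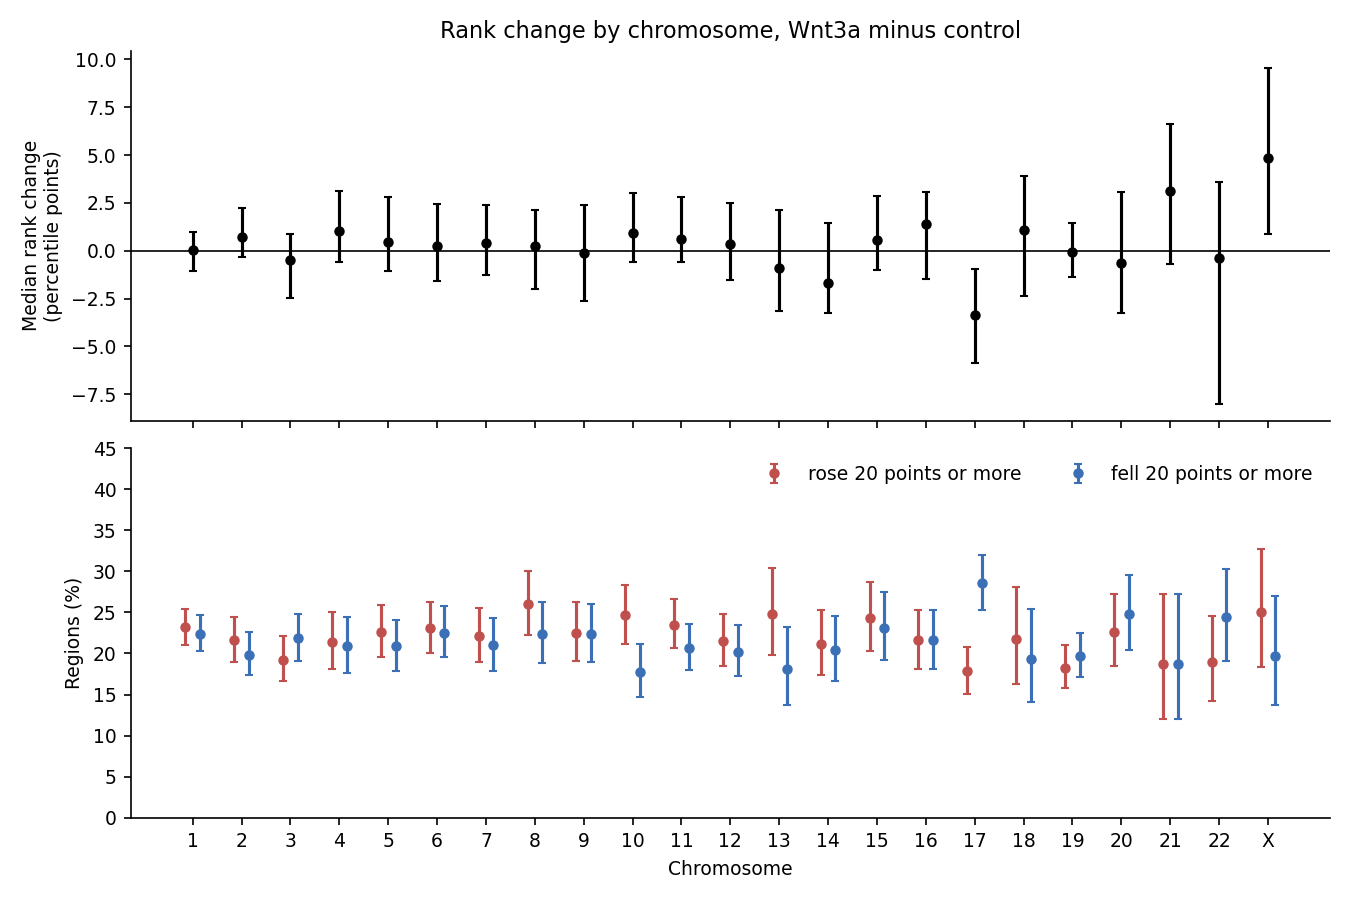
Top, median rank change in percentile points for the shared regions of each autosome and the X chromosome, with 95% order-statistic intervals over regions. Bottom, percent of regions that rose or fell by 20 points or more, with exact 95% intervals; chromosome 17 has the lowest median, -3.36, and chromosome X the highest, 4.83, which turns to -0.047 when ranks are taken among all peaks.

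Among 114 cytogenetic bands with 30 or more shared regions, the interval of the median lay below 0 in 5 and above 0 in 3, a count that was not adjusted for the number of bands. The lowest median was in 17q21.2, at -13.1 points (-29.6 to -1.47), where 15 of 38 regions fell and 4 rose. In 9q34.11 the median was -10.5 (-16.0 to -2.93), with 20 falls and 10 rises among 65 regions. The highest were 2p11.2, at +13.2 (0.934 to 22.4), and 12q23.3, at +12.3 (2.23 to 29.6), each with 13 rises and 5 falls. The median control ranks of 17q21.2, 9q34.11, 2p11.2 and 12q23.3 were 60.1, 61.7, 51.4 and 40.9. In the centromeric bands 22 of 74 regions fell, 29.7% (19.7 to 41.5), an interval that holds the 21.6% of all regions. There 9 rose, 12.2% (5.71 to 21.8) beside 21.9% of all, with a median change of +0.034 (-4.42 to 2.25). The centromeric regions had a median control rank of 74.4. In the eighth decile of control rank 37.9% of all shared regions fell and 3.77% rose. Neighbouring regions did not shift together. Spearman's rho between the changes of a region and the next was -0.05 for 443 pairs up to 1 kb apart and between -0.01 and 0.04 at greater distances. The ranks themselves were also only weakly related between neighbours. Their rho lay between 0.02 and 0.16 in control and between 0.02 and 0.09 after Wnt3a. Bands that held several of the most shifted regions had others that moved the opposite way, with 12 rises and 12 falls among 40 regions in 1p32.3 and 9 rises and 7 falls among 32 in 8q22.3.

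The lists of the other treated groups place the control and Wnt3a ranks in context. Of the shared regions 99.3% met an Activin A peak and 98.6% a combined-treatment peak, and 13030 met both. In these 13030, a change of 20 points or more in either direction was found in 43.8% between Wnt3a and control, the highest of the 6 pairs of lists. It was found in 36.5% between Activin A and control, 36.8% between both ligands and control, 39.6% between Wnt3a and Activin A, 40.0% between Wnt3a and both ligands, and 23.9% between Activin A and both ligands. In the same pairs Spearman's rho was 0.54, 0.64, 0.65, 0.61, 0.60 and 0.80. Control and Wnt3a were thus the 2 lists least alike, and each stood further from the other than from the lists with Activin A. They were also the 2 shortest lists, with 26223 and 21078 peaks. Peaks of these regions were wider after Activin A than in control, with a median ratio of 1.40, and after both ligands, with 1.43, where the Wnt3a ratio was 0.885. In these unscaled widths, Wnt3a alone was therefore the only treatment with narrower peaks than control in these regions. Widths divided by a median of their list were not compared for the lists with Activin A.

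The risen and fallen sets were also followed in the other lists. They were chosen on the control and Wnt3a ranks, which by itself places them between those ranks in any other list, so these values are a description. The 2878 risen regions of this set had median ranks of 23.6 in control and 65.5 after Wnt3a, and of 45.2 after Activin A and 44.3 after both ligands. The 2829 fallen regions had medians of 65.4 in control and 22.8 after Wnt3a, and of 48.0 after Activin A and 48.6 after both. The 7323 others had medians of 54.7, 54.6, 53.5 and 53.4 in the same order. In both lists with Activin A the risen and fallen sets lay within 5 points of each other. Rises of 50 points or more, 520 regions, had medians of 10.6 in control, 74.8 after Wnt3a, 48.3 after Activin A and 47.7 after both ligands. Falls of that size, 565 regions, had 75.3, 12.1, 54.7 and 54.8.

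**Figure D5:**
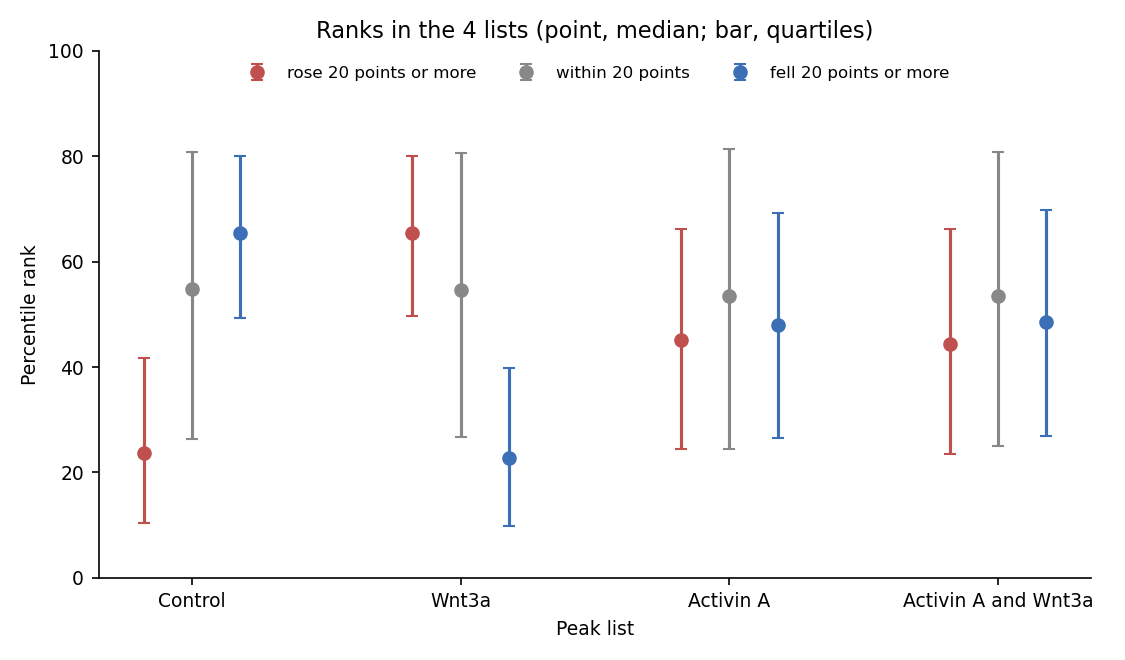
Percentile rank among the 13030 shared regions with a peak in all 4 lists (vertical axis) in the control, Wnt3a, Activin A and combined lists, for regions that rose, stayed within 20 points or fell between control and Wnt3a; points are medians and bars run between quartiles. The risen and fallen sets are far apart in control and Wnt3a and within 5 points of each other in both lists with Activin A.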

How the data were processed

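ATAC-seq of H1 cells gave 1 peak list per group. The submitters' processing notes name CASAVA 1.8, Bowtie2 2.2.2 and build hg19. Not given in the sources used here are the peak caller, its settings, read shifting, duplicate removal and read numbers, and depth is therefore unknown. The score in each list is the authors' value as deposited and was used only for ranks within a list. Peaks of the control and Wnt3a lists that overlapped or touched were merged. A region's width in a list is that of its widest peak. Shares carry exact (Clopper-Pearson) 95% intervals and medians order-statistic intervals, both for counting over regions only. With 1 library a side, groups were not tested against each other. The steps were tested on simulated data. Bands came from circlize 0.4.16 and 44 hg19 genes, 43 with a RefSeq symbol, from GenomicFeatures 1.54.1; a start window of 1 kb was used. Computations used Python 3.11.15, numpy 2.4.6, pandas 2.3.3 and scipy 1.17.1, with plots from matplotlib 3.10.9. Regions were named by rule: the 10 largest rises and falls, the 5 largest of each at mean rank 75 or more, the 5 largest width ratios each way, the 5 highest mean ranks, and shifted regions at gene starts. The other gene-start values were chosen after they were seen. The members and lists were chosen with earlier results of these data known. Coordinates are hg19, counted from 1. Planned gene lists, cell type markers and motifs within regions need hg19 genes or sequence and were not analysed here.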

Additional observations from a re-analysis of the deposited data

How the results depend on the processing

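No paired analysis was possible because there was 1 library a group, and leaving out a replicate could not be run. Of 82 values recomputed under other settings, 59 stayed within the interval of the main value, or within 1.5 times for counts. The median width ratio turned, to 0.035 on the log2 scale with 52.9% of regions wider, when each width was divided by the median of the shared regions of its list, which takes the common narrowing out. Divided by the median of all peaks of its list, it was -0.066 with 44.3% wider. The median of the X chromosome turned to -0.047 when regions were ranked among all peaks of each list, while that of chromosome 17 went to -6.41, the SD to 28.1 and the counts to 2102 rises and 3397 falls. With pairs of peaks that overlapped by 50% of both, the SD was 25.7, rho 0.60, the log2 width ratio -0.15 and the share wider 35.5%. With summed scores the SD was 26.9 and rho 0.57. Above the median of mean rank, ranked again, there were 1785 rises and 1744 falls among fewer regions, with an SD of 33.8, rho of 0.31 and an X median of 11.5. Selecting regions on both ranks by itself lowers rho there. A threshold of 10 points gave 4466 rises and 4345 falls, and one of 30 points 1748 and 1796. The cause of the other moves was not tested. Regions that also met a peak of both other lists moved none of these values beyond their interval. That alternative and the median of all peaks were chosen after seeing the data. Windows of 500 bases and 2 kb gave 18 and 20 gene starts. Depth was unknown, so how many shifts it could account for was not tested.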
